A study of Mus musculus with 4 samples.

Results

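The Nodal signalling pathway was examined at the RNA level in mouse embryonic stem cells of 2 genotypes, wild type and Chd2 mutant. It was represented by 10 genes, picked by name out of 23309 gene names in the deposited table. They are the ligand Nodal, its co-receptor Tdgf1, the receptors Acvr1b, Acvr2a and Acvr2b, the signal transducers Smad2 and Smad3, their DNA-binding partner Foxh1, and the inhibitors Lefty1 and Lefty2. The genes were proposed with earlier results of the same comparison known, so their differences between genotypes are described and not tested anew. Each statement of significance is that of the authors' deposited table.

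Nodal is a secreted ligand of the TGF-beta superfamily. With the cell-surface co-receptor Cripto, the product of Tdgf1, it engages type I and type II activin receptors, which phosphorylate SMAD2 and SMAD3. These proteins enter the nucleus with SMAD4 and act with FOXH1 on target genes, among which are Nodal itself, Lefty1 and Lefty2. LEFTY proteins block Nodal outside the cell and so close a negative feedback loop, which in the embryo limits the spread of Nodal activity before and during gastrulation. Undifferentiated embryonic stem cells express most of these components.

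The cells were of the 129/Ola strain at passages 10 to 20. Both genotypes were grown on gelatin, in 10% fetal bovine serum with 1000 U/ml of leukemia inhibitory factor (LIF), a cytokine that maintains the undifferentiated state. One group was wild type, and the other carried the Chd2 mutation on both alleles (Chd2mut/mut). Chd2 encodes an ATP-dependent chromatin remodeler. The comparison asks how its mutation alters RNA levels in undifferentiated cells. The titles of the mutant libraries call the line Chd2KO, a knockout. The labels do not say how the alleles were altered, whether the line was 1 clone or how it was related to the wild-type line. Each genotype had 2 libraries of total RNA, marked lot 1 and lot 2. The values used are 1 FPKM (sequenced fragments scaled for transcript length and library size) per gene and genotype, taken by the authors over those libraries. They therefore carry no standard deviation, and sequencing depth is unknown. The labels do not name the lots as separate cultures. A q-value of the authors may therefore reflect technical spread alone.

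Chd2 was listed at 10.2 FPKM in wild-type cells and 5.69 FPKM in mutant cells, or 55.9% of the wild-type level, and fell with a q-value of 0.0103 in the authors' deposited table. The 10 markers of embryonic stem cells that were checked were all present, with summed levels of 2580 FPKM in wild-type cells and 2682 FPKM in mutant cells, and 9 of them lay on the higher side in the mutant without any being called. Most markers of other cell types were under 1 FPKM, with the exceptions named here. Those of primitive and visceral endoderm, an extraembryonic tissue that itself expresses Lefty1, summed to 5.21 and 5.05 FPKM over 10 genes, with 9 of the 10 under 1 FPKM in both genotypes. Hhex gave most of that sum, at 3.30 and 3.45 FPKM, while Gata4 was at 0.341 and 0.174 FPKM, Foxa2 at 0.0404 and 0.140 FPKM and Ttr at 0 in both. Mesendoderm markers summed to 3.05 and 2.90 FPKM over 8 genes, mostly from Eomes at 2.29 and 2.19 FPKM, with Lhx1 at 0 in both genotypes. Fibroblast markers summed to 14.7 and 11.8 FPKM over 8 genes, nearly all of it from Thy1 at 14.2 and 11.5 FPKM, with Col3a1, Lum and Postn at 0 in both. Trophoblast markers summed to 42.4 and 46.2 FPKM over the 9 found, mostly from Krt8 at 19.8 and 22.5 FPKM, Krt18 at 9.51 and 10.99 FPKM and Tfap2c at 8.08 and 8.07 FPKM. Ascl2 was at 2.95 and 2.92 FPKM, and the defining Elf5 was at 0.0927 FPKM in wild-type cells and 0 in mutant cells. None of these markers was called, and their part in the changes below was not tested. Since RNA was taken from whole cultures, a change in the share of cells that express a gene and a change in RNA per cell cannot be told apart.

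All 10 pathway genes reached a mean of 1 FPKM, the minimum used for summaries, with Acvr2a only just above it at 1.00 FPKM. Among them, the inhibitors had the largest differences between the genotypes, and the ligand, receptors, SMADs and Foxh1 lay closer to their wild-type levels. The authors' deposited table called 1 of the 10, Lefty2, or 10% of them. Among the 11276 listed genes whose q-value is below 1, the same table called 0.718% in either direction and 0.257% higher in the mutant. With 1 call chosen in knowledge of its value, the share among the members is given only as a description. Changes are given as differences of log2(FPKM + 1) and are positive where the mutant is higher. Their median over the 10 genes was 0.09, against -0.0012 over the 10766 genes kept, and without Lefty1 and Lefty2 it was 0.05 over the remaining 8. In all, 7 members lay above 0 and 3 below, while 49.6% of the genes kept lay above 0.

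**Figure D1:**
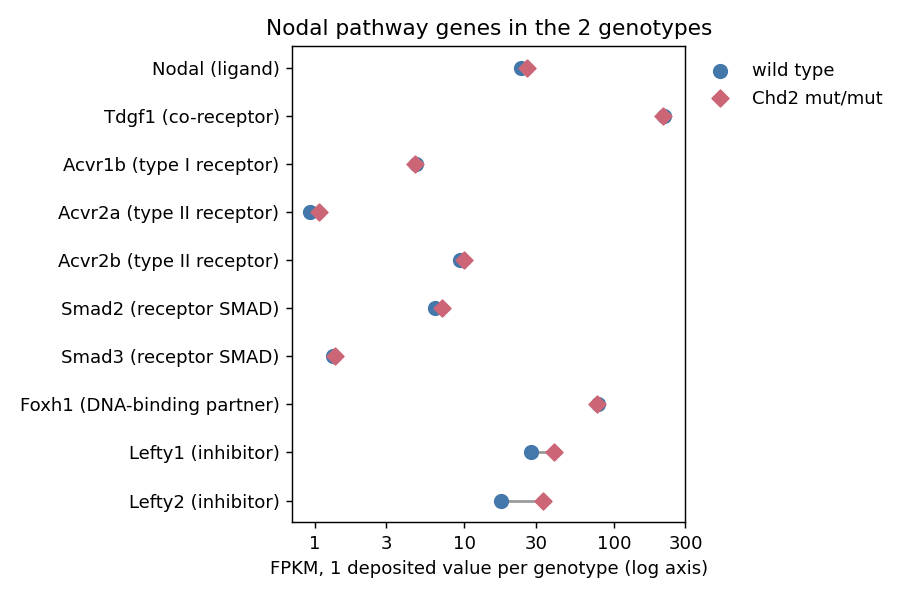
Level of each Nodal pathway gene in wild type (circles) and Chd2 mut/mut (diamonds), in FPKM on a log axis, with 1 deposited value per genotype and no error bars. The pairs of symbols overlap or nearly so for Nodal, the co-receptor, the receptors, the SMADs and Foxh1, whereas Lefty1 moves from 27.7 to 39.6 FPKM and Lefty2 from 17.4 to 33.7 FPKM.

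Lefty2 encodes one of the secreted inhibitors of Nodal. It stood at 17.4 FPKM in wild-type cells and 33.7 FPKM in mutant cells. It thus rose to 193% of the wild-type level, with a q-value of 0.0103 in the authors' deposited table, the lowest value there and shared by 55 genes. Its difference of 0.91 was reached or exceeded by 44 of the 10766 genes kept, or 0.409%. To allow for level, Lefty2 was also set beside genes of like abundance. Of 3100 genes with a mean FPKM within 2-fold of its own, 15 lay as high, Lefty2 included. Counted in either direction, a difference of at least that size was held by 1.16% of these genes and by 1.07% of all genes kept. Setting it beside genes of like level thus left its place nearly the same. Among the 29 genes called higher, Lefty2 was the seventh by fold change and the sixth by level in the mutant. In wild type its level exceeded that of 61.4% of the genes kept, and in the mutant that of 75.4%.

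Lefty1 encodes the other inhibitor. It was at 27.7 FPKM in wild-type cells and 39.6 FPKM in mutant cells, or 143% of the wild-type level. Lefty1 did not pass the authors' threshold, with a q-value of 0.125 in the authors' deposited table, where 40 uncalled genes had a lower one. Its difference of 0.501 was reached by 130 of the genes kept, or 1.21%, and by 25 of the 2775 genes within 2-fold of its level. Both inhibitors therefore lay on the higher side, with the call confined to Lefty2 among the 10 genes. Whether the change of Lefty2 differs from that of Lefty1 was not tested.

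The LEFTY genes are close paralogs, which bears on how their values can be read. Of 1571 distinct 50-base windows of the GENCODE M21 transcript of Lefty1, 281 occur letter for letter in that of Lefty2, or 17.9%. These windows are 11.6% of the 2424 windows of Lefty2. No source used here gives the read length or the handling of reads that match more than 1 gene, so the split of such reads between Lefty1 and Lefty2 is uncertain. Their sum does not depend on that split as directly. It was 45.1 FPKM in wild-type cells and 73.3 FPKM in mutant cells, a ratio of 1.62.

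**Figure D2:**
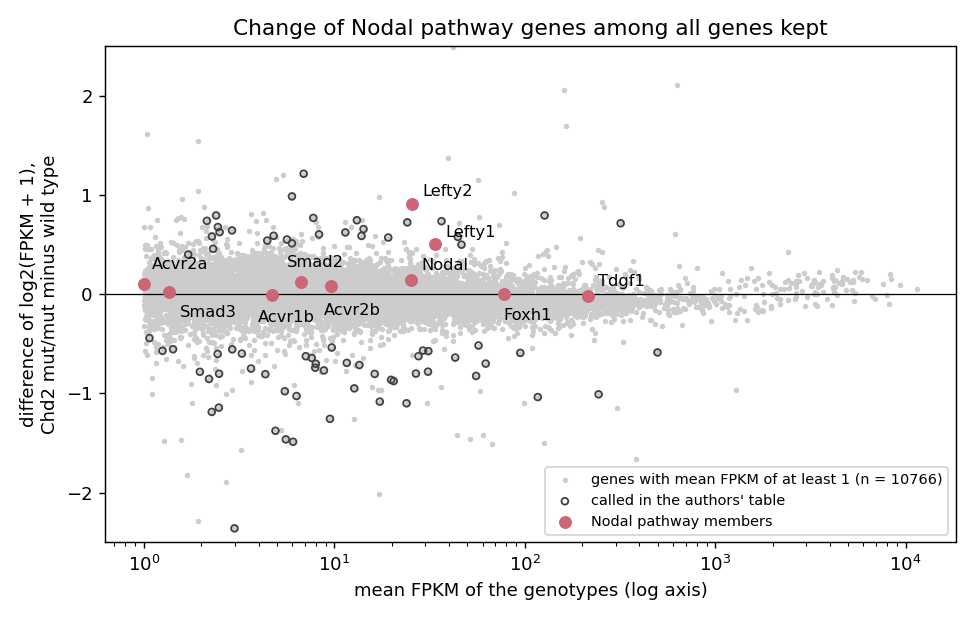
Log2(FPKM + 1) of the mutant minus that of wild type against the mean FPKM of the genotypes on a log axis, for the 10766 genes kept (grey), the genes called in the authors' deposited table (open circles) and the 10 Nodal pathway genes (filled, labelled). Lefty2 at 0.91 and Lefty1 at 0.501 lie above the other 8 members, which fall between -0.02 and 0.14; 51 genes lie beyond the vertical limits of 2.5.

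Nodal, the ligand, was at 23.9 FPKM in wild-type cells and 26.4 FPKM in mutant cells, 110.5% of the wild-type level, with a q-value of 0.981 in the authors' deposited table. The difference of 0.14 lay within the central range of the genes kept, whose 10th and 90th percentiles were -0.21 and 0.21. Inhibitor RNA thus stood higher relative to ligand RNA in the mutant. Lefty1 and Lefty2 together amounted to 1.89 times the FPKM of Nodal in wild type and to 2.77 times in the mutant. For Lefty2 alone the ratio to Nodal was 0.730 in wild-type cells and 1.27 in mutant cells. The share of Lefty2 in the summed LEFTY level was 38.6% in wild-type cells and 45.9% in mutant cells. These ratios compare single values per genotype and have no error.

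Tdgf1, the co-receptor, was the most abundant of the 10 genes in both genotypes, at 216 FPKM in wild-type cells and 212 FPKM in mutant cells. Its difference was -0.02, and its level exceeded that of 95.3% of the genes kept in wild type. The q-value of Tdgf1 in the authors' deposited table was 0.998. Part of its sequence is repeated elsewhere, since 9.24% of its 50-base windows also occur in the annotated pseudogene Tdgf1-ps1. Cfc1, which encodes the related co-receptor Cryptic, was at 0.695 FPKM in wild-type cells and 1.36 FPKM in mutant cells, with a q-value of 0.756 in the authors' deposited table, so that nearly all co-receptor RNA was Tdgf1.

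Tdgf1 is itself described as a target of the pathway, and its upstream sequence is shown because it alone among those searched held both kinds of motif looked for. RefSeq sequences upstream of the start were matched by symbol for 6 of the 10 genes, those of Nodal, Tdgf1, Acvr1b, Acvr2a, Acvr2b and Smad3. Lefty1, Lefty2, Smad2 and Foxh1 were not matched. The 250 bases before each start were searched on both strands for a loose FOXH1 motif, TGTNNATT, and for the SMAD motif CAGAC, and no match of one overlapped a match of the other. The Tdgf1 window lies at chr9:110946159-110946408 of GRCm38.p6, minus strand. It is printed in the direction of transcription, with the motif matches in capitals.
Tdgf1: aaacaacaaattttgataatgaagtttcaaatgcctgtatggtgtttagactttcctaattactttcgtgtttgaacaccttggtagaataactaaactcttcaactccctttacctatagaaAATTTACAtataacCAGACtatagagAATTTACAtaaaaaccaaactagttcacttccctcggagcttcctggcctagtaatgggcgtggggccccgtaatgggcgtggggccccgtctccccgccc
The FOXH1 letters matched 2 times, both on the strand opposite to the gene, at 127 to 120 and at 101 to 94 bases before the start. The SMAD letters matched 1 time between them, at 113 to 109 bases before the start. Among 32851 promoter windows of the same length, 10.9% held the FOXH1 letters and 42.2% the SMAD letters. The share that held both kinds, or 2 FOXH1 matches, was not counted, and the Tdgf1 window was picked for its matches. Acvr2a and Acvr2b held 1 SMAD match each and no FOXH1 match, and the windows of Nodal, Acvr1b and Smad3 held neither. The palindromic SMAD motif GTCTAGAC, held by 0.167% of all windows, and the TATA box letters TATAAA, held by 12.4%, occurred in none of the 6. A match of letters is a description and not a measured binding site.

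The receptors were expressed at lower levels and unequally. Acvr1b encodes ALK4, the type I receptor kinase, and was at 4.74 FPKM in wild-type cells and 4.69 FPKM in mutant cells. Of the type II receptors, Acvr2b was at 9.32 and 9.89 FPKM and Acvr2a at 0.930 and 1.08 FPKM, in wild type and mutant. Acvr2a thus made up 9.07% of the summed type II level in wild-type cells and 9.82% in mutant cells. The differences were -0.01 for Acvr1b, 0.08 for Acvr2b and 0.11 for Acvr2a, each with a q-value of 0.998 in the authors' deposited table. Acvr2a shares 7.04% of its 50-base windows with the annotated neighbour Orc4. The library kit is not described as strand-specific, so reads from that stretch cannot be assigned to either gene, and the low level of Acvr2a is uncertain to that extent.

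Smad2 and Smad3 encode the transducers that the receptors phosphorylate. Smad2 was at 6.38 FPKM in wild-type cells and 7.05 FPKM in mutant cells, and Smad3 was at 1.33 and 1.37 FPKM. Smad2 RNA was the larger part of their sum, 82.7% in wild-type cells and 83.7% in mutant cells. Their differences were 0.13 and 0.02, with q-values of 0.971 and 0.998 in the authors' deposited table. Foxh1, which encodes the factor that brings SMAD complexes to DNA, was at 77.7 FPKM in wild-type cells and 77.5 FPKM in mutant cells, a difference of -0.0040. Foxh1 stood at 10.1 times the summed FPKM of Smad2 and Smad3 in wild-type cells and 9.21 times in mutant cells. Apart from Lefty1 and Lefty2, the members ran from 98.4% of the wild-type level (Tdgf1) to 116% (Acvr2a). The signs of the differences of Tdgf1 and Foxh1 are not fixed, as quantile normalization turned them to 0.04 and 0.04. With 1 value per genotype, no interval can be put on these differences, and the q-values do not show that the levels are equal.

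By level, the order in wild type was Tdgf1, Foxh1, Lefty1, Nodal, Lefty2, Acvr2b, Smad2, Acvr1b, Smad3 and Acvr2a. The order in the mutant was the same except that Lefty2 and Nodal changed places, Lefty2 being the fifth in wild type and the fourth in the mutant. Which neighbours in this order differ beyond their spread cannot be said without values per library.

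Lefty2 and Lefty1 lie close together on chromosome 1, so the genes around them were examined in RefSeq order. The 5 nearest protein-coding genes beyond each end of the pair were taken. On the far side of Lefty1, Tmem63a, which encodes an ion channel, was at 1.89 and 2.57 FPKM, and Ephx1, an epoxide hydrolase, at 2.14 and 3.35 FPKM, ratios of 1.36 and 1.57. On the far side of Lefty2, Sde2 was at 31.97 and 32.4 FPKM and H3f3a, which encodes histone H3.3, at 448 and 450 FPKM. Mixl1, a target of the pathway that lies beyond them, was at 0.168 and 0.246 FPKM.

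Neither side was uniform. Beyond Lefty1, Nvl was at 47.2 and 47.4 FPKM, and beyond Lefty2, Acbd3 was at 10.5 and 11.7 FPKM. Of these 10 neighbours, 8 reached a mean of 1 FPKM, with 7 above 0 and 1 below and a median difference of 0.08. The 3 that lay above the 90th percentile of all genes kept were Tmem63a, Ephx1 and Cnih4, all beyond Lefty1. None of the 8 was called, and the lowest q-value among them in the authors' deposited table was 0.436, that of Ephx1. Whether neighbours share a change was not tested.

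**Figure D3:**
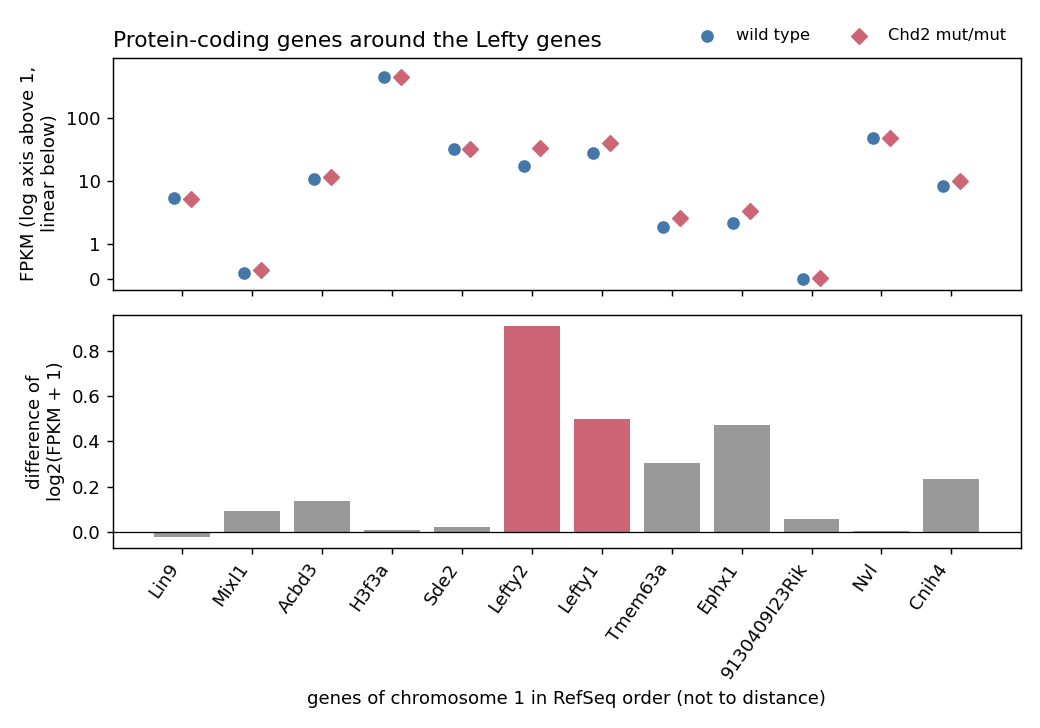
Upper panel, FPKM of Lefty2 and Lefty1 with the 5 protein-coding genes beyond each end of the pair, 12 genes in RefSeq order on chromosome 1, in wild type (circles) and Chd2 mut/mut (diamonds), on an axis that is logarithmic above 1 and linear below. Lower panel, the same log2(FPKM + 1) difference for each gene, positive where the mutant is higher, with Lefty1 and Lefty2 coloured; Sde2 and H3f3a are near 0, while Tmem63a is at 0.30 and Ephx1 at 0.47.

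Further genes, of the pathway and of related TGF-beta and BMP signalling, were described from lists of 76. Of these, 46 reached a mean of 1 FPKM. Of these 46, 23 lay above 0 and 23 below, with a median difference of -0.00026, and the authors' deposited table called 1, Fstl1. Over all 11276 genes with a q-value below 1, the same table called 0.718% in either direction and 0.257% higher. At that share, few calls or none in such short lists say little about the lists. Fstl1 encodes a secreted glycoprotein related to follistatin. It rose to 10.2 FPKM from 6.39 FPKM, with a log2 fold change of 0.68 and a q-value of 0.0103 in the authors' deposited table. It was the 1 call in a list of 10 other extracellular inhibitors and binding proteins, of which 4 were kept. Whether Fstl1 acts on Nodal was not tested. The median difference of this short list was 0.03, and it was 0.07 with all 10 genes. Among those with a mean of 5 FPKM or more, which are only Fstl1 and Nomo1, it was 0.29. The uncalled Chrd, which encodes the BMP antagonist chordin, was at 1.32 and 0.854 FPKM in wild type and mutant. Dand5, a Nodal antagonist of the Cerberus family, was at 1.21 and 1.34 FPKM, and Nomo1, named as a modulator of Nodal, at 26.01 and 25.5 FPKM. Cer1, which encodes the Nodal antagonist Cerberus, was listed at 0 in wild-type cells and at 0.0447 FPKM in mutant cells, so that Lefty1 and Lefty2 stood far above Dand5 and Cer1.

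Other ligands of the superfamily and the convertases that cleave their precursors had no call among 7 genes kept of 16, and a median difference of -0.03, or 0 with all 16 genes. Gdf3, a Nodal-related ligand that also uses Cripto, was at 40.2 FPKM in wild-type cells and 39.3 FPKM in mutant cells and so was more abundant than Nodal. Inhbb, which encodes the beta-B subunit of activins and inhibins, was at 3.53 and 2.19 FPKM, with a q-value of 0.0813 in the authors' deposited table. Furin, a proprotein convertase that can process Nodal, was at 1.29 and 1.74 FPKM, and Pcsk7 at 2.55 and 2.83 FPKM. Pcsk6, a further convertase of the list, was more abundant, at 8.52 and 7.84 FPKM, and lay on the lower side with a difference of -0.11. Tgfb1 was at 9.64 and 10.6 FPKM. Inhba, which encodes the beta-A subunit, was listed at 0 in both genotypes.

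Among other receptors and co-receptors, 5 of 8 were kept and none was called, with a median difference of 0.19 and 3 above 0. The median was -0.04 when the genes under 1 FPKM were included. Cfc1 is given above. Eng, a co-receptor of TGF-beta and BMP ligands, was at 2.79 and 3.73 FPKM, Acvr1, a type I receptor used mainly by BMP ligands, at 1.21 and 1.51 FPKM, and Bambi, a decoy receptor, at 1.85 and 1.47 FPKM. Acvr1c, which encodes ALK7, the alternative type I receptor for Nodal, was listed at 0 in both genotypes, so that Acvr1b was the type I receptor of Nodal detected here.

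The 29 SMAD partners and brakes had 27 genes kept, no call and a median difference of -0.0034, with 13 above 0 and 14 below. The sign of that median is not fixed, as it was 0.03 among genes with a mean of 5 FPKM or more. Smad4, the common partner of the receptor SMADs, was at 23.8 FPKM in wild-type cells and 23.4 FPKM in mutant cells. Smad7, an inhibitory SMAD that TGF-beta-like signals induce, was at 7.04 and 7.90 FPKM, and Smad6, the inhibitory SMAD of the BMP branch, at 2.301 and 1.43 FPKM. Ski, a SMAD corepressor, was at 13.7 and 16.3 FPKM, the ubiquitin ligase gene Smurf2 at 5.86 and 7.41 FPKM, and Zfyve9, which encodes the SMAD anchor SARA, at 2.62 and 3.35 FPKM.

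**Figure D4:**
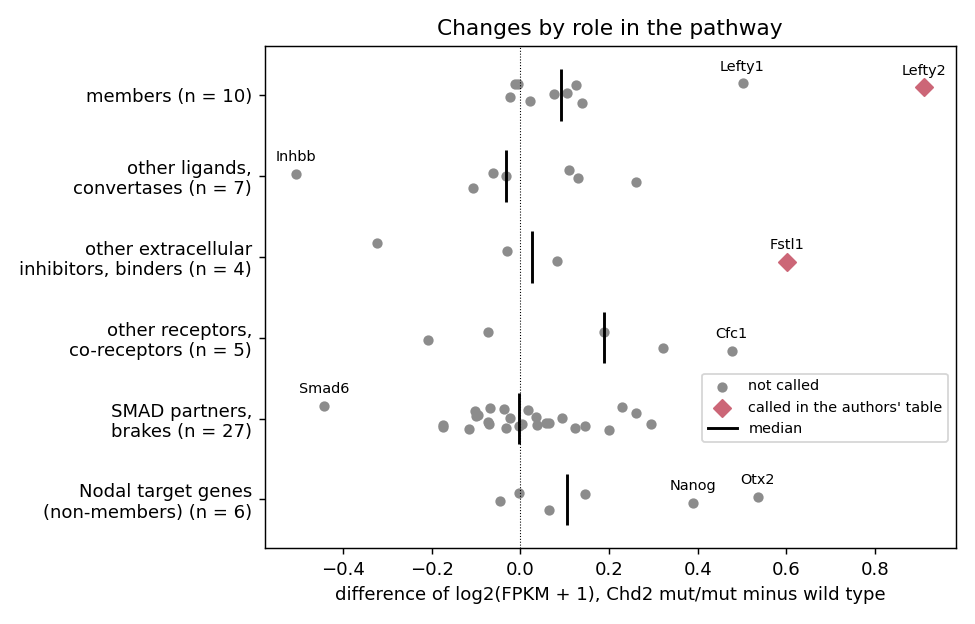
Log2(FPKM + 1) of the mutant minus that of wild type of the 10 members and of the other listed genes by role, for genes whose mean reaches 1 FPKM. Each point is 1 gene of a list, and diamonds are genes called in the authors' deposited table (Lefty2 and Fstl1). Smad7, Skil and Pmepa1 are listed both as SMAD partners and as targets, so each is drawn in both rows. Vertical bars are medians, which run from -0.03 in other ligands and convertases to 0.19 in other receptors. Points farther than 0.38 from 0 are labelled.

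Target genes of the pathway other than the members held no call. Of 18 listed, 12 had a mean under 1 FPKM in these undifferentiated cells, among them the mesendoderm genes Gsc, T and Foxa2. The 6 kept had a median difference of 0.11, with 4 above 0 and 2 below. Otx2, an epiblast transcription factor, was at 4.93 and 7.59 FPKM, and Nanog, a pluripotency factor, at 114 and 150 FPKM, with q-values of 0.162 and 0.293 in the authors' deposited table. Skil, which encodes a SMAD corepressor that is induced by the signal, was at 15.8 FPKM in wild-type cells and 16.5 FPKM in mutant cells. Smad7 is given above, and Pmepa1, another induced inhibitor of SMAD signalling, picked with its value in view, was at 3.62 and 3.61 FPKM. Smad7, Skil and Pmepa1 are also in the list of SMAD partners and brakes, so the medians of these lists share genes. Among the listed targets, members included, Lefty2 was the only call.

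The genes whose pair of levels was nearest to that of Lefty2, by distance on the log2(FPKM + 1) scale over the 2 genotypes, were Etnk1, Acyp1 and Snhg4. Etnk1, an ethanolamine kinase, was at 17.98 and 30.3 FPKM and was called higher in the authors' deposited table. Acyp1 was at 18.8 and 27.4 FPKM and Snhg4 at 19.8 and 27.6 FPKM, and neither was called. With 2 values per gene this likeness says only that the levels are close.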

How the data were processed

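RNA sequencing was done on 4 libraries of total RNA, 2 per genotype, made with the NEBNext Ultra RNA kit per the labels. The submitters' processing notes name the mm9 build and the tools TopHat2 2.1.0, Cufflinks and bcl2fastq 2.17.1.14. No source used here gives the version of Cufflinks, the annotation or the test behind the q-value. The authors deposited 1 FPKM per gene and genotype, a log2 fold change without a pseudocount and a q-value. All 81 of the authors' calls have a q-value under 0.05, and no other gene has one. A q-value of 1 was taken as not tested.

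From these values, differences of log2(FPKM + 1), which understate changes of low genes, list medians and ratios were computed with pandas 2.3.3 under Python 3.11.15, for genes whose mean reached 1 FPKM. The difference computation was run on simulated data with known changes and no noise, which checks the arithmetic only. The design fixed limma only for values per library, which were not analysed here, so no test was run. Members and lists were chosen with earlier results of these data known. Genes named are the members, called list genes, up to 4 per list with the largest differences, the 3 nearest to Lefty2, 5 neighbours beyond each end of the Lefty pair and a few for their role. GENCODE M21 and RefSeq (GRCm38, another build than the authors used) gave transcripts, upstream sequences and gene order. Alternatives were another pseudocount, filter or scale. A few genes of the lists and of the Lefty locus are not reported here.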

Additional observations from a re-analysis of the deposited data

How the results depend on the processing

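Lefty2 and Lefty1 kept their direction under all 6 alternatives of pseudocount and scale, with differences from 0.91 to 0.95 and from 0.495 to 0.527. The median of the 10 members ran from 0.08 under quantile normalization to 0.13 with a mean of at least 5 FPKM, which kept 7 of them. Asking also for a log2 fold change of 1 or more in size left 0 members called, since that of Lefty2 is 0.95 in the authors' deposited table, while a mean of at least 5 FPKM left 1. Of the 60 values of single members under these alternatives, 11 moved by over 1.5 times, all in members with small differences. Quantile normalization turned the differences of Tdgf1 and Foxh1 from -0.02 and -0.0040 to 0.04 and 0.04. A pseudocount cannot turn a direction, and these settings leave the authors' q-values as they are. The fits with a replicate block and without single libraries were not run. No paired analysis was possible because the table holds 1 value per genotype. Depth is unknown, so nothing can be said on how it limits Acvr2a, Smad3 and other genes near 1 FPKM. No gene of the other receptors reached a mean of 5 FPKM, so that filter gives no median for them.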
